A study of Mus with 4 samples.

Results

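Of the 19505 mouse genes named on the arrays, 9 genes of the CC chemokine system are described here. They were chosen by symbol, as 7 ligands (Ccl2, Ccl3, Ccl4, Ccl5, Ccl7, Ccl8 and Ccl12) and 2 receptors (Ccr1 and Ccr2), and all 9 had 1 probe set each. RNA came from whole subcutaneous tumors of Renca cells, a mouse renal adenocarcinoma line, measured on 4 Affymetrix arrays in 4 groups of 1 array each. The groups were shNrf3-HFD, shCtrl-HFD, shNrf3-NC and shCtrl-NC. The injected cells stably carried either a hairpin aimed at Nrf3, the gene Nfe2l3 (shNrf3), or a control one (shCtrl). The hosts were male BALB/cCrSlc mice, bought at 4 to 6 weeks of age and given a high-fat diet (HFD) or normal chow (NC) for 17 weeks. Tumors were taken 2 weeks after injection into the flank. The host's own cells in a tumor carry no hairpin, and the number of tumors behind each array, or whether the lines were clones, is not stated in the labels.

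CC chemokines are small secreted proteins that draw leukocytes along a gradient, and their receptors are G protein-coupled receptors on those leukocytes. Ccl2, Ccl7 and Ccl12 act through Ccr2, which carries inflammatory monocytes out of the bone marrow and into tissues. Ccl3 and Ccl5 act through Ccr1 among other receptors. Ccl8 is known in the mouse as a ligand of Ccr8. In tumors this system is best known for the recruitment of monocytes that become macrophages.

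Values are on the log2 scale, so a difference of 1 is 2-fold, and a gene is counted as higher or lower at 2-fold or more. Each group has 1 array, so differences between arrays come without replicates, and precision is limited by how few arrays there are. Probe sets differ in brightness, so each gene is compared only with itself across arrays. A level summed over a marker list is therefore weighted to its brightest genes. Negative control rows had medians of 5.35 to 5.39 and 95th percentiles of 8.97 to 9.35 on the 4 arrays. Ccl8 and Ccr1 read above that 95th percentile on all 4 arrays, Ccl2, Ccl12 and Ccr2 on 3, Ccl3 and Ccl7 on 2, and Ccl4 and Ccl5 on none. Apart from Ccl4 and Ccl5, the readings below it were those of Ccl2 on shCtrl-HFD, Ccl12 and Ccr2 on shCtrl-NC, Ccl3 on both shCtrl arrays and Ccl7 on both HFD arrays, so differences that use them rest on a level within that of most control rows. The targeted gene, Nfe2l3, read 6.05 on the shNrf3-HFD array against 5.77 on the shCtrl-HFD array, and 5.56 on the shNrf3-NC array against 6.22 on the shCtrl-NC array. It thus went against the label in HFD, at readings that all lay within the range of most negative control rows. Every construct direction below is that of the libraries labelled shNrf3 and shCtrl.

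The label of the tissue was set against markers of epithelium. Keratin 18 (Krt18) read 15.22, 15.90, 14.46 and 15.17 on the shNrf3-HFD, shCtrl-HFD, shNrf3-NC and shCtrl-NC arrays, and 5 of 10 markers of renal epithelium, Cdh16 and Pax2 among them, read below the negative control median on all of them. Markers of monocytes and macrophages were present on every array, with 11, 11, 13 and 10 of 16 above the 95th percentile of the control rows in the same order. No T cell marker of 13 passed that level on any array. The skeletal muscle markers stood apart on 1 array: 7 of 10 passed it on the shNrf3-NC array, against 0 on shNrf3-HFD and 1 on each shCtrl array. Tumors were measured as bulk tissue, so fewer cells of a type and less RNA per cell cannot be told apart.

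**Figure D1:**
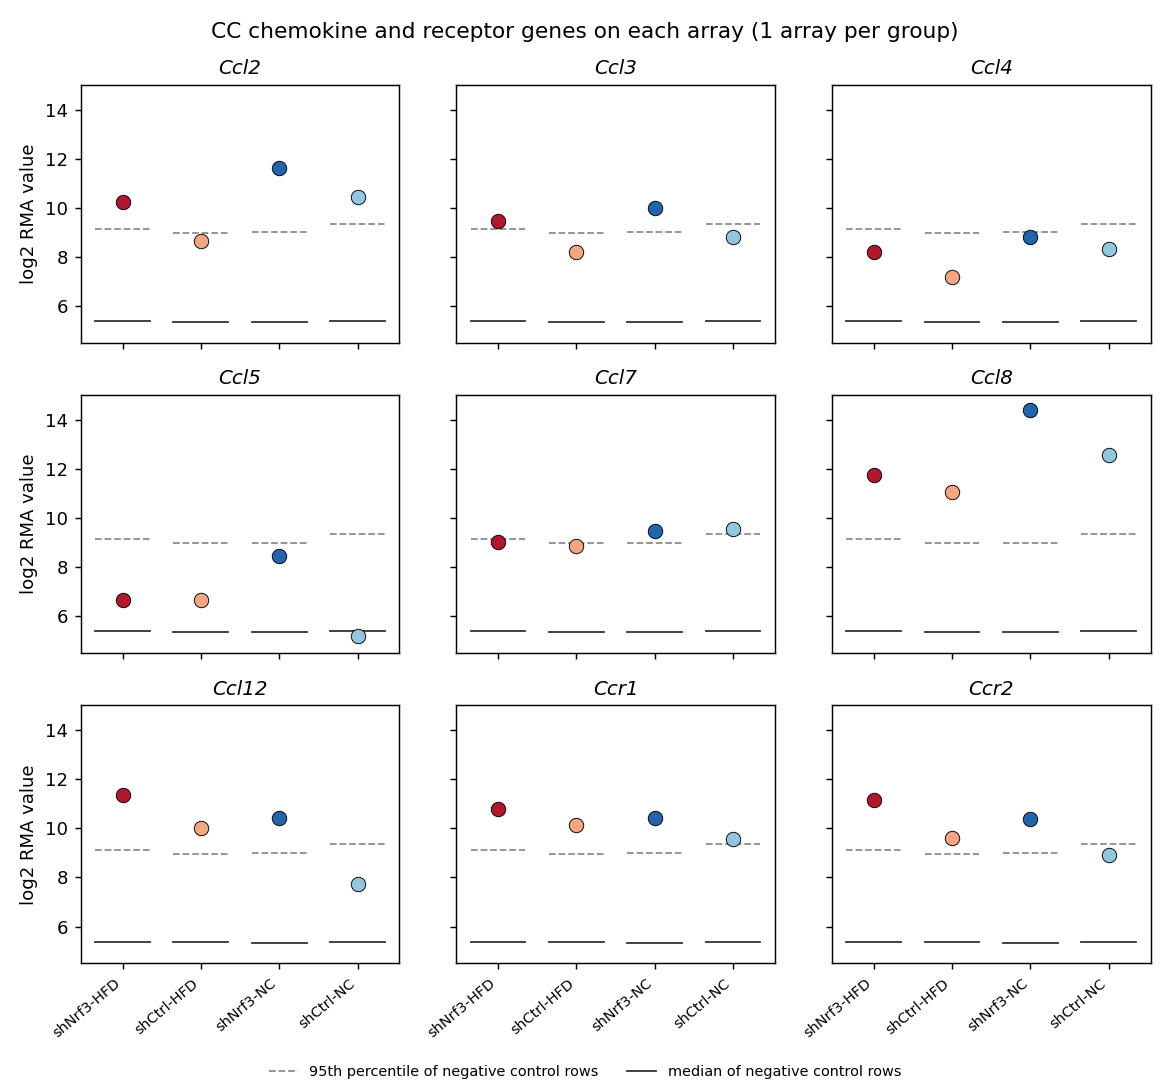
Log2 RMA value (y axis) of each of the 9 genes on the 4 arrays (x axis), 1 point per array, with the median (solid) and the 95th percentile (dashed) of the negative control rows of that array. Ccl2, Ccl3, Ccl4, Ccl5 and Ccl8 are highest on the shNrf3-NC array, and Ccl12, Ccr1 and Ccr2 on the shNrf3-HFD array.

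Among the ligands of Ccr2, Ccl2 (monocyte chemoattractant protein 1) read 10.24 on the shNrf3-HFD array, 8.66 on shCtrl-HFD, 11.63 on shNrf3-NC and 10.44 on shCtrl-NC. It was lowest with the control hairpin in HFD, and in each diet the array labelled shNrf3 was the higher. The difference was 1.57 in HFD (2.98-fold) and 1.19 in NC (2.28-fold). Ccl12, a rodent ligand of Ccr2, read 11.35 on shNrf3-HFD, 9.995 on shCtrl-HFD, 10.41 on shNrf3-NC and 7.74 on shCtrl-NC. It was also higher with shNrf3 in each diet, by 1.35 in HFD (2.55-fold) and 2.67 in NC (6.38-fold, against a shCtrl reading not above the 95th percentile of the control rows), but its order by diet was the opposite of that of Ccl2. Ccl7 (monocyte chemoattractant protein 3) read 9.03 on shNrf3-HFD, 8.85 on shCtrl-HFD, 9.49 on shNrf3-NC and 9.56 on shCtrl-NC. With a range of 0.71 over the 4 arrays it varied least of the 9 genes, and its construct differences were 0.18 in HFD and -0.06 in NC.

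Ccl3, Ccl4 and Ccl5 differed in pattern. Ccl3 (macrophage inflammatory protein 1 alpha) read 9.48 on shNrf3-HFD, 8.22 on shCtrl-HFD, 9.99 on shNrf3-NC and 8.81 on shCtrl-NC, so that the array labelled shNrf3 was higher by 1.26 in HFD and by 1.18 in NC. Ccl4 (macrophage inflammatory protein 1 beta) read 8.20 on shNrf3-HFD, 7.18 on shCtrl-HFD, 8.81 on shNrf3-NC and 8.32 on shCtrl-NC, with differences of 1.01 and 0.49. Ccl3 and Ccl4 had the closest pair of profiles among the 36 pairs of the 9 genes (Euclidean distance of 0.614 between log2 profiles centred on their own means). Ccl5 (RANTES), made by T cells, natural killer cells and macrophages, read 6.66 on shNrf3-HFD, 6.66 on shCtrl-HFD, 8.46 on shNrf3-NC and 5.18 on shCtrl-NC. The shCtrl-NC reading lay below the control median of that array (5.38) and was set to it, which gives a construct difference of 3.08 or more in NC (at least 8.46-fold). In HFD the construct difference of Ccl5 was -0.01.

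Ccl8 read 11.75 on shNrf3-HFD, 11.05 on shCtrl-HFD, 14.40 on shNrf3-NC and 12.57 on shCtrl-NC. Both NC arrays lay above both HFD arrays, and shNrf3 was above shCtrl in each diet, by 0.70 in HFD and by 1.83 in NC (3.55-fold).

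The 2 receptor genes were the third closest pair among the genes described (distance 0.814). Over all genes compared, the nearest profile lay at 0.109 for Ccr1 and 0.0936 for Ccr2. Ccr2 read 11.14 on shNrf3-HFD, 9.60 on shCtrl-HFD, 10.36 on shNrf3-NC and 8.90 on shCtrl-NC, with construct differences of 1.53 in HFD (2.90-fold) and 1.47 in NC (2.76-fold). Ccr1 read 10.77 on shNrf3-HFD, 10.12 on shCtrl-HFD, 10.41 on shNrf3-NC and 9.57 on shCtrl-NC, with construct differences of 0.65 and 0.84. Both were highest on the shNrf3-HFD array and lowest on the shCtrl-NC array.

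Between constructs, 5 of the 9 genes were 2-fold or more higher with shNrf3 in HFD and 0 lower, where 2.55% of the 10021 genes past the filter on level were higher and 7.13% lower. In NC 6 of the 9 were higher and 0 lower, where 13.3% of all genes were higher and 4.52% lower. The split over all genes depended on the scaling: 256 were higher and 714 lower in HFD, and 481 and 383 after centring each array on its genes past the filter. In NC it was 1334 and 453, and 922 and 790 after that centring. The median difference of the 9 genes was 1.01 in HFD against -0.14 for all genes, and 1.19 in NC against 0.14 for all genes. Counted from the median of all genes, the numbers were again 5 and 6, where 3.85% of all genes in HFD and 10.4% in NC were then higher. In both diets Ccl2, Ccl3, Ccl12 and Ccr2 passed 2-fold upwards, 4 of 9, where 0.838% of all genes were, and 0 of 9 were lower in both, where 0.828% of all genes were. The 2 comparisons have no array in common. This count of 4 was 3 after cyclic loess, without Ccl2, and 2 after quantile scaling or centring on the genes past the filter, where Ccl12 and Ccr2 passed. By size of the HFD difference Ccl2 ranked 35, Ccr2 44, Ccl12 79 and Ccl3 108 among the 10021 genes. In NC, where more genes were high, Ccl12 ranked 56, Ccr2 575, Ccl2 958 and Ccl3 968. The 9 genes were chosen with earlier results of these arrays known, so these counts are a description.

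**Figure D2:**
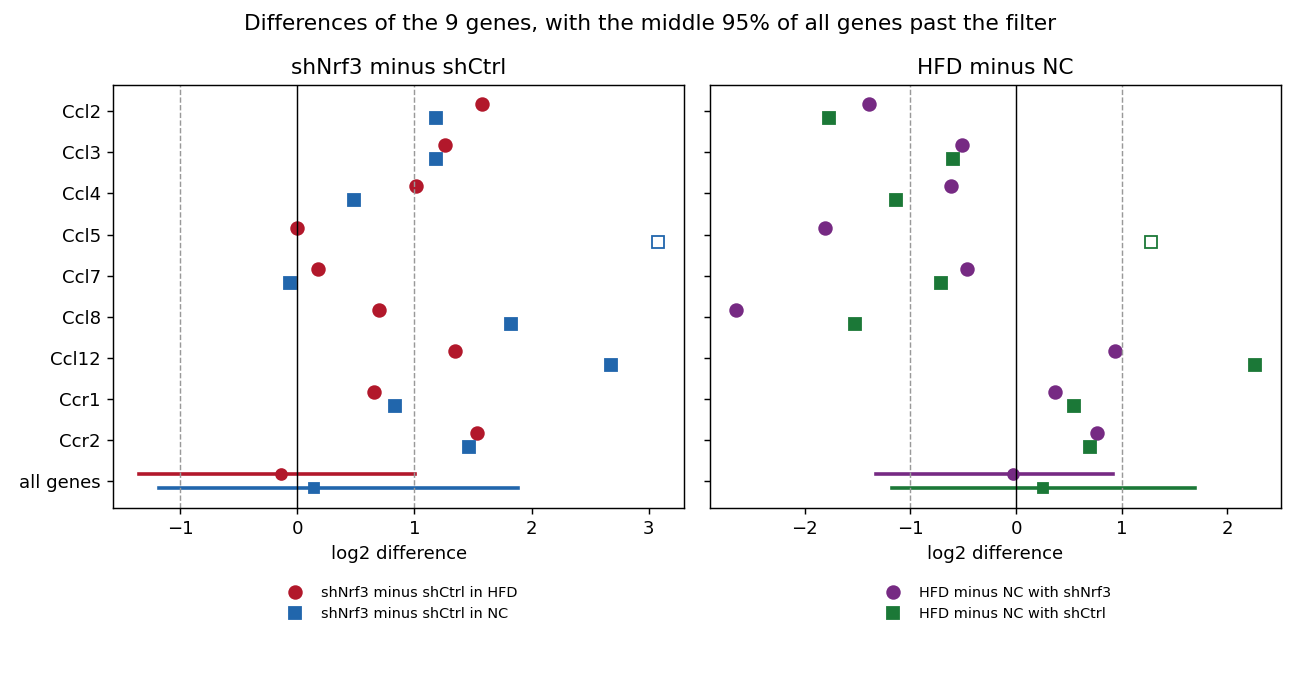
Log2 difference (x axis) of each of the 9 genes (rows) for shNrf3 minus shCtrl in each diet (left) and HFD minus NC with each construct (right). Open symbols are lower bounds, dashed lines mark 2-fold, and the last row gives the median and the middle 95% of the 10021 genes past the filter; in HFD, Ccl2, Ccr2, Ccl12 and Ccl3 lie beyond the upper end of that range (1.01) and Ccl4 lies at it.

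Between diets the 9 genes did not all go the same way. Ccl2, Ccl3, Ccl4, Ccl7 and Ccl8 were lower in HFD than in NC with both constructs (5 of 9, against 17.2% of all genes). Ccl12, Ccr1 and Ccr2 were higher with both, and these 3 of 9 are close to the share of all genes (30.5%). Ccl5 went one way with each construct. The 2 diet comparisons have no array in common either. With shNrf3, 3 of the 9 were 2-fold or more lower in HFD and 0 higher, where 5.03% of all genes were lower and 1.87% higher. With shCtrl, 3 were lower and 2 higher, where 3.90% were lower and 14.6% higher. After centring on the genes past the filter, 282 genes were higher and 394 lower with shNrf3, against 187 and 504 as deposited. With shCtrl it was 725 and 849 after that centring, against 1468 and 391 as deposited. The medians of the 9 genes were -0.52 with shNrf3 and -0.59 with shCtrl, against -0.03 and 0.26 for all genes.

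Ccl8 had the largest diet difference with shNrf3 among the 9, -2.65 (6.29-fold lower in HFD), and -1.52 with shCtrl (2.87-fold lower). Ccl2 differed by -1.39 with shNrf3 (2.62-fold lower) and by -1.77 with shCtrl (3.42-fold lower). These 2 genes were 2-fold or more lower with both constructs, where 0.539% of all genes were, and 0 of the 9 were higher with both, where 0.359% were. Ccl4 differed by -0.61 and -1.14, Ccl3 by -0.52 and -0.59, and Ccl7 by -0.46 and -0.71. In the other direction Ccl12 differed by 0.93 with shNrf3 and 2.26 with shCtrl (4.79-fold higher in HFD), Ccr2 by 0.77 and 0.70, and Ccr1 by 0.37 and 0.55. With shCtrl the receptor differences lay close to what all genes showed: 0.45 for Ccr2 and 0.29 for Ccr1 once the median of all genes is taken off. Ccr2 and its ligand Ccl2 therefore had opposite diet differences with either construct, while Ccr2 and its ligand Ccl12 had the same sign. Ccl5 differed by -1.81 with shNrf3 and by 1.28 or more with shCtrl.

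The construct difference in HFD minus that in NC was -3.09 or lower for Ccl5, -1.32 for Ccl12 and -1.13 for Ccl8, so 3 of 9 were 2-fold or more lower and 0 higher, where 21.9% of all genes were lower and 6.45% higher (2193 and 646 genes, and 1150 and 1403 after centring on the genes past the filter). From the median of all genes (-0.30) it was 2, Ccl5 and Ccl12, where 14.1% of all genes were then lower, and only Ccl5 stayed under cyclic loess, quantile scaling or centring on the genes past the filter. For the other 6 genes it lay between -0.18 (Ccr1) and 0.53 (Ccl4), with Ccl2 at 0.39, Ccl3 at 0.08 and Ccr2 at 0.07. Under the other scalings Ccl2 ran from 0.24 to 0.81 and Ccl4 from 0.38 to 0.95, and Ccl3, Ccr1 and Ccr2 took both signs.

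An additive fit of construct and diet was made with limma across the 10021 genes, with the construct by diet interaction as its only residual degree of freedom. It called 0 genes (0%) for either term at an adjusted p of 0.05, with 447 and 292 genes at an unadjusted p under 0.05 for construct and diet. Averaged over the diets, Ccl12 was 2.01 ± 0.46 higher with shNrf3 (SE; limma adjusted p = 0.936), Ccr2 1.501 ± 0.38 (adjusted p = 0.936) and Ccl2 1.38 ± 0.39 (adjusted p = 0.961). Averaged over the constructs, Ccl8 differed by -2.09 ± 0.44 in HFD, Ccl2 by -1.58 ± 0.39 and Ccl12 by 1.60 ± 0.46 (limma adjusted p = 0.999 for each). In this limma fit 5 of the 9 genes had an unadjusted p under 0.05 for construct and 3 for diet. The variation among tumors treated alike is not in these errors.

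The genes lie in runs on the chromosome. In the RefSeq gene table of assembly GRCm38.p6, used only for gene order, Ccl2, Ccl7, Ccl11, Ccl12, Ccl8 and Ccl1 are consecutive protein-coding genes, and Ccl5, Ccl9, Ccl6, Ccl3 and Ccl4 form a second run. In the first run Ccl12 was higher in HFD with both constructs, while its neighbours Ccl11 (eotaxin, an eosinophil attractant; -0.63 with shNrf3 and -1.65 with shCtrl) and Ccl8 were lower. In the second run Ccl6, a mouse ligand of Ccr1, read 13.61 on shNrf3-HFD, 12.09 on shCtrl-HFD, 14.89 on shNrf3-NC and 13.30 on shCtrl-NC, with construct differences of 1.52 in HFD and 1.60 in NC. Its neighbour Ccl9, also a mouse ligand of Ccr1, read 13.50 on shNrf3-HFD, 13.28 on shCtrl-HFD, 14.99 on shNrf3-NC and 12.90 on shCtrl-NC, with construct differences of 0.22 and 2.09. Among the receptors, Ccr1, Ccr1l1, Ccr3 and Ccr2 are consecutive in that table. Ccr1l1 and Ccr3, which lie between Ccr1 and Ccr2, read below the negative control median on all 4 arrays.

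In the rest of the family few genes were measured well above the control rows. Of 16 other CC ligands 2 were 2-fold or more higher with shNrf3 in HFD and 2 lower. In NC 2 were higher and 0 lower, and the medians were -0.13 and 0.33. Over all genes past the filter, 2.55% were higher and 7.13% lower in HFD, and 13.3% and 4.52% in NC. Only 10 of the 16 ligands are past that filter, with medians of 0.12 and 0.36. The 2 higher in HFD were Ccl6 and Ccl24, and the 2 higher in NC were Ccl6 and Ccl9. The 2 lower in HFD, Ccl22 and Ccl26, are not past the filter. Only Ccl6, Ccl9 and Ccl11 of the 16 read above the 95th percentile of the control rows on any array. Between diets 0 of the 16 were higher and 4 lower in HFD with shNrf3, and 2 higher and 3 lower with shCtrl. Over all genes past the filter it was 1.87% and 5.03% with shNrf3, and 14.6% and 3.9% with shCtrl. Of the 4 lower with shNrf3, Ccl21b and Ccl21c had the same values on all 4 arrays (-1.19 each), so 1 signal is counted as 2. Ccl22, 1 of the 2 higher with shCtrl, is not past the filter. All 8 measured other CC receptors read below that percentile on the 4 arrays, and 7 of 8 below the control median on each, Ccr7 being the exception. Ccr8, the receptor of mouse Ccl8, was among those below it, at 3.69 to 4.32. Atypical receptors bind chemokines without G protein signalling, and those listed are not all receptors of CC chemokines. Ackr3, a receptor of CXC chemokines, read 7.27 on shNrf3-HFD, 8.55 on shCtrl-HFD, 9.62 on shNrf3-NC and 8.77 on shCtrl-NC. Ccrl2, which presents chemerin, read 8.22, 8.26, 9.57 and 7.18 in the same order. Both were highest on the shNrf3-NC array.

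Genes whose profile over the 4 arrays lay nearest to that of a CC gene were sought among 9729 genes, by Euclidean distance. Nearest to Ccl2 were Ccl6 (distance 0.445), Ibsp, which encodes bone sialoprotein (0.458), and the CC chemokine gene Ccl24 (0.673). Nearest to Ccr2 were Mgp, matrix Gla protein (0.0936), Bcl2a1a, an anti-apoptotic gene of leukocytes (0.242), and Ch25h, an oxysterol-forming hydroxylase of macrophages (0.259). Nearest to Ccl5 were the small heat shock gene Cryab (0.256), the stearoyl-CoA desaturase gene Scd1 (0.492) and the acyltransferase gene Agpat2 (0.499). With 4 arrays such likeness is a description of these arrays.

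Markers of other cells also differed between the arrays. The median difference of the 16 monocyte and macrophage markers between constructs was 0.49 in HFD (3 higher, 0 lower) and 1.34 in NC (11 higher, 0 lower). Over all genes 2.55% were higher and 7.13% lower in HFD, and 13.3% and 4.52% in NC. In HFD Ccl2 (1.57), Ccr2 (1.53), Ccl12 (1.35) and Ccl3 (1.26) lay above every one of those markers, of which Itgam was highest at 1.17. In NC only Ccl5 (3.08 or more) lay above every one of them, of which Folr2 was highest at 2.76. More than 1 above the markers' median lay Ccl2 and Ccr2 in HFD, and Ccl5 and Ccl12 in NC. Below the NC median lay Ccl2 by 0.15, Ccl3 by 0.16 and Ccl7 by 1.40, with Ccl4 and Ccr1 also below it. Between diets the markers' medians were -0.41 with shNrf3 and 0.57 with shCtrl, so that with shCtrl Ccl2, Ccl8 and Ccl4 lay 2.35, 2.09 and 1.71 below the macrophage median. The markers Lyz2 and Apoe differed between constructs by 1.03 and -0.63 in HFD and by 1.49 and 2.01 in NC.

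**Figure D3:**
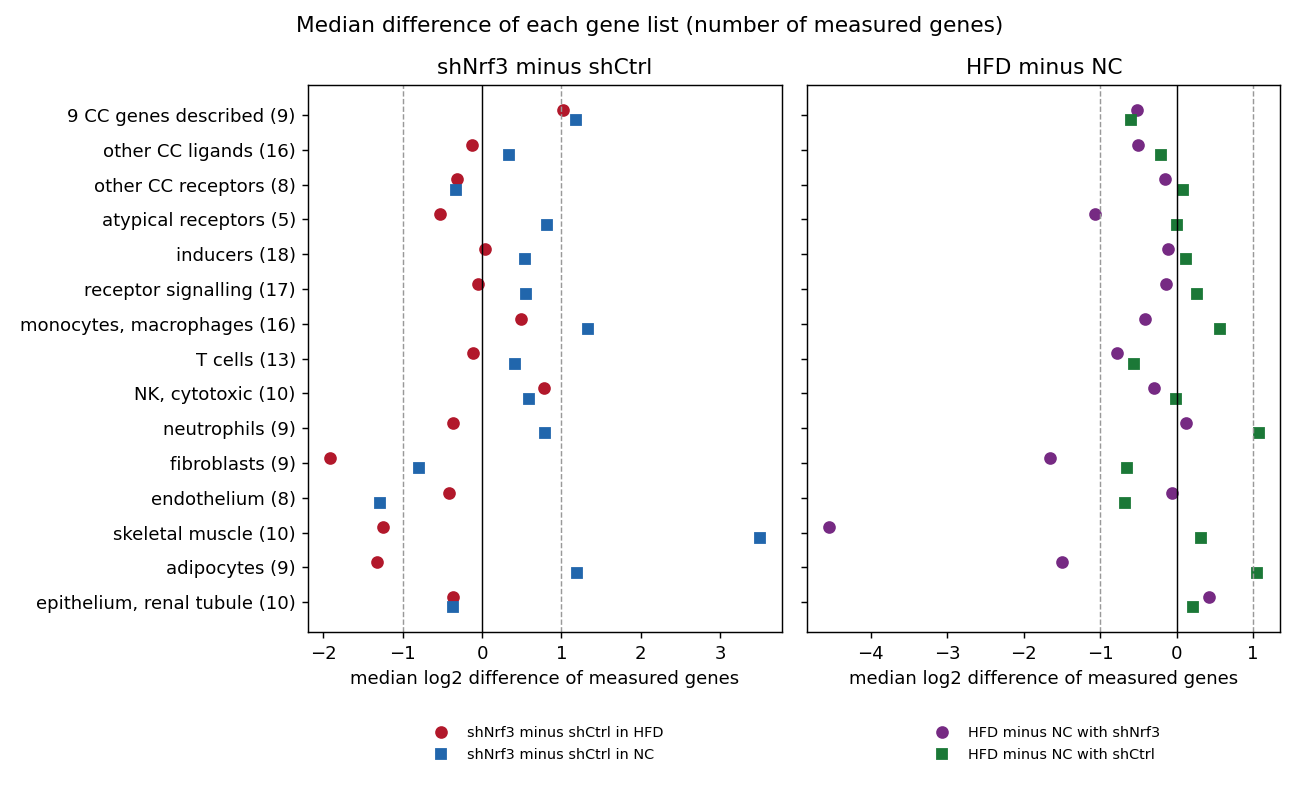
Median log2 difference (x axis) of the measured genes of each list (rows, with their number) for shNrf3 minus shCtrl in each diet (left) and HFD minus NC with each construct (right). In HFD the 9 CC genes have a median of 1.01 for the construct, against 0.49 for monocyte and macrophage markers and -0.13 for other CC ligands, and the skeletal muscle list lies at 3.50 in NC. The medians take all measured genes, also those not past the filter on level. Over genes past it, the other CC ligands lie at 0.12 in HFD and skeletal muscle at 5.06 in NC.

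The shNrf3-NC array was also high in most of the muscle and fat genes listed. Summed over the 10 skeletal muscle markers the log2 level was 14.11 on it, against 9.45 to 10.71 on the other 3, and Acta1 (skeletal muscle actin) read 12.51 there against 4.73 to 6.48. Summed over 9 adipocyte markers it was 14.39 on shNrf3-HFD, 15.70 on shCtrl-HFD, 16.03 on shNrf3-NC and 14.38 on shCtrl-NC. That sum follows the brightest of them, Fabp4 (14.25, 15.58, 15.75 and 14.20 in the same order). Between constructs in NC 7 of the 9 lay above 0, and Plin1 (-0.38) and Lep (-0.24) below it. Adipoq read 11.73 on shNrf3-NC against 8.36 to 9.70 on the other arrays. Ccl5, at 8.46 on that array and 5.18 to 6.66 on the others, was highest there too, as were Ccl8, Ccl2, Ccl3 and Ccl4. In the HFD construct comparison, where 2.55% of all genes were higher and 7.13% lower, both lists lay the other way. Their medians were -1.24 for muscle (0 higher, 5 lower of 10) and -1.33 for adipocytes (0 higher, 6 lower of 9). The part of muscle and fat in these values was not tested. Fibroblast markers had medians of -1.92 in HFD and -0.79 in NC between constructs. The 10 natural killer and cytotoxic markers had medians of 0.79 in HFD (4 higher, 0 lower) and 0.59 in NC (2 higher, 0 lower). Of these, 4 lay below 0 in HFD and 2 in NC, and 5 were past the filter, with medians of 0.98 and 0.66. The brightest, the granzyme gene Gzmb, differed by 1.67 and 4.20. Its shCtrl readings (7.69 in HFD, 6.69 in NC) lay below the 95th percentile of the control rows. The 13 T cell markers had medians of -0.11 in HFD (1 higher, 1 lower) and 0.42 in NC (4 higher, 0 lower). In NC 13.3% of all genes past the filter were higher and 4.52% lower. The 8 T cell markers past that filter had medians of -0.07 and 0.97. Of the 13, 4 lay below 0 in NC, Cd4 (-0.34) and Cd5 (-0.52) among them. Like Ccl5, the T cell receptor subunit genes Cd3g (-0.19 in HFD, 2.08 in NC) and Cd3e (-0.70, 1.67) and the coreceptor gene Cd8a (-0.47, 1.84) differed upwards in NC and not in HFD, while Cd8b1 was higher in both (1.01, 1.71). The medians of neutrophil markers were -0.37 in HFD and 0.79 in NC, and of endothelial markers -0.42 and -1.29. Over the 6 endothelial markers past the filter they were -1.04 and -1.29. No marker of B cells or dendritic cells passed the 95th percentile of the control rows on any array. The part of these cells in the values of the 9 genes was not tested.

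Genes that induce these chemokines and 2 that restrain NF-kappaB, Nfkbia and Tnfaip3, were listed together, and 18 of 20 were measured. The counts and medians therefore mix both kinds. The genes went both ways, from -2.43 to 1.75 between constructs in HFD. Between constructs 2 passed 2-fold upwards and 2 downwards in HFD, and 2 and 1 in NC, with medians of 0.03 and 0.54. Over all genes 2.55% passed upwards and 7.13% downwards in HFD, and 13.3% and 4.52% in NC. The 14 of these listed genes past the filter on level had medians of 0.03 and 0.41. Il1b, an inflammatory cytokine, differed by 1.04 in HFD and 0.91 in NC. Nfkbia, the NF-kappaB inhibitor that NF-kappaB itself induces, differed by -1.42 and 1.11, Tnfaip3 by -0.39 and 0.10, and the interferon factor Irf1 by 0.42 and 0.52. The interferon factor Irf7 differed by -2.43 and 0.24, and the cytokine gene Il6 by -0.97 and -1.64, and by -1.53 with shNrf3 and -2.20 with shCtrl between diets. Between diets 0 of the 18 were higher and 4 lower with shNrf3 (median -0.11), Nfkbia and Tnfaip3 among the 4. With shCtrl 2 were higher and 1 lower (median 0.12). Over all genes it was 1.87% and 5.03% with shNrf3, and 14.6% and 3.9% with shCtrl. Genes of receptor signalling (17 of 20 measured) had construct medians of -0.05 in HFD and 0.55 in NC, with Gnai2, which couples these receptors, at -0.27 and 0.69. Their diet medians were -0.13 with shNrf3 and 0.27 with shCtrl.

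Under 4 other scalings between arrays, 34 of the 36 construct and diet differences of the 9 genes kept their sign. The exceptions were the smallest, Ccl5 between constructs in HFD (-0.05 to 0.21) and Ccl7 between constructs in NC (-0.27 to 0.03). The count of genes higher in both diets rests on values near 2-fold in NC, where Ccl2 ranged from 0.93 to 1.28 and Ccl3 from 0.98 to 1.28. Ccl4 in HFD was also near it (0.97 to 1.23).

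**Figure D4:**
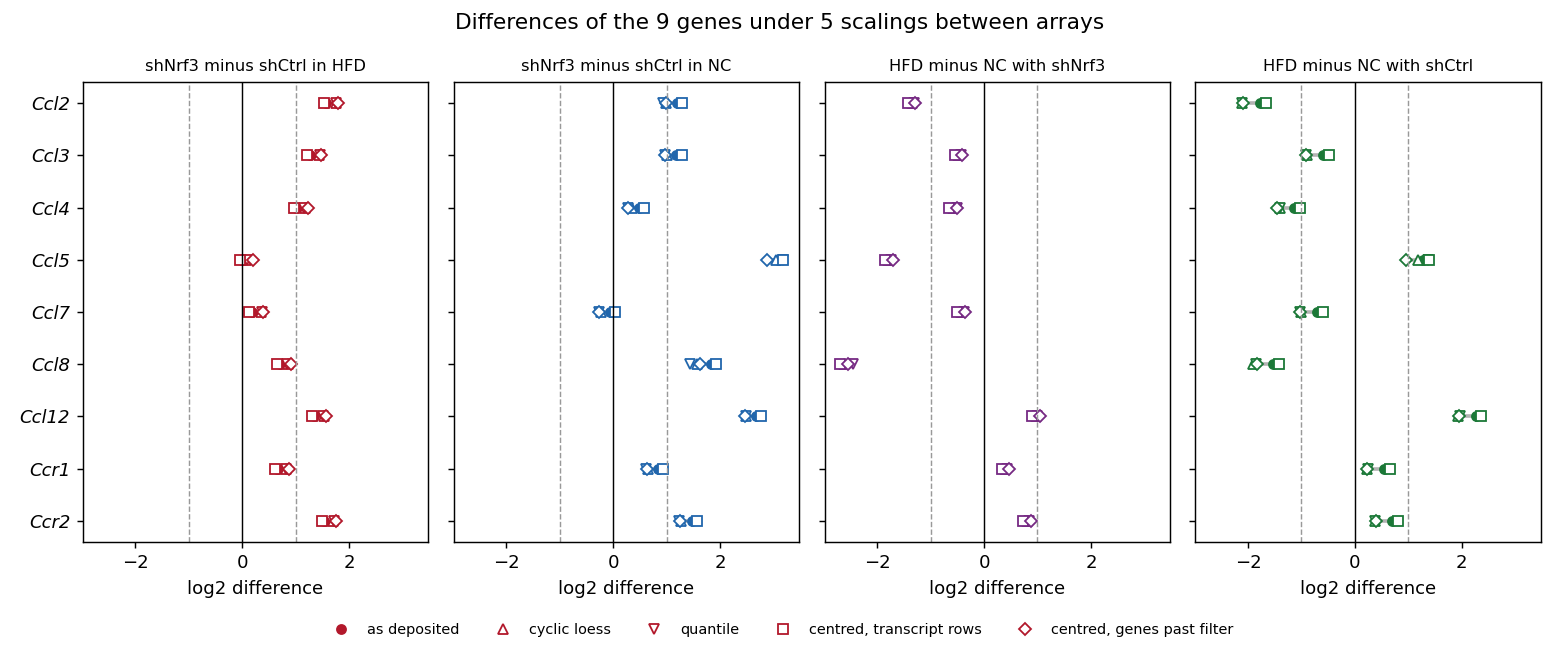
Log2 difference (x axis) of each of the 9 genes (rows) in the 4 comparisons (panels) with the values as deposited (filled) and under 4 other scalings (open); grey bars span the range and dashed lines mark 2-fold. The directions of Ccl2, Ccl8, Ccl12 and Ccr2 are the same under all 5, and Ccl2 and Ccl3 in NC lie on both sides of 2-fold.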

How the data were processed

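The authors made the deposited log2 values with Affymetrix Expression Console and RMA, per the submitters' processing notes; their versions and the build were not given in the sources used here. Per the labels' protocols, 100 ng of total RNA was labelled for each array. An array gives no depth of counts, and signal over background is given by 5222 negative control rows. Platform annotation named 19572 of 22206 transcript rows, all with 1 symbol and all matched to RefSeq by Entrez ID. Where a gene had several probe sets (55 genes, none of the 9) the brightest was taken. The filter on level kept 10021 genes, those whose mean reached 5.73, the median of all row means. Readings of the 9 genes below an array's negative control median were set to it. Differences of 2 arrays were counted at 1 or more (2-fold). The additive fit used limma 3.58.1 in R 4.3.3 (lmFit, eBayes, Benjamini-Hochberg), on the values without that floor. RefSeq (GRCm38.p6) gave only names and gene order. Of 193 context list entries 180 were measured.

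All 9 genes and the lists were chosen with earlier results of these data known. The rule for naming took the 9 genes, family members at 2-fold or more and above the 95th percentile of control rows on an array, the 3 nearest profiles to Ccl2, Ccl5 and Ccr2, up to 4 of the brightest genes of other lists, and Nfe2l3. Ccl24 enters as a nearest profile. Cdh16, Pax2, Itgam, Cd3e, Cd3g, Cd5, Cd8a, Cd8b1, Plin1, Lep, Irf7, Il6, Ccr1l1, Ccr3, Ccr7 and Ccr8 were named after their values were seen. The same holds for Ccl21b, Ccl21c, Ccl22, Ccl26 and Folr2. Alternatives were cyclic loess, quantile and 2 centrings, other filters, the mean of probe sets, no floor, a 1.5-fold threshold and eBayes with a trend.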

Additional observations from a re-analysis of the deposited data

Results flagged for a closer look

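Ccl5 stood out because its construct difference was close to 0 in HFD (-0.01) and 3.08 or more in NC, and because its diet difference was -1.81 with shNrf3 and 1.28 or more with shCtrl. Both pairs differ by -3.09 or lower on the log2 scale, and with 1 array per group this difference was not tested. The T cell genes Cd3e (-0.70 in HFD, 1.67 in NC), Cd8a (-0.47, 1.84) and Cd3g (-0.19, 2.08) also differed upwards between constructs in NC and not in HFD, and Gzmb did so in both (1.67, 4.20). These 3 T cell genes were named after their values were seen. Of all 13 T cell markers, 4 were 2-fold or more higher in NC and 0 lower, with a median of 0.42. In NC 4 of the 13 lay below 0, Cd4 (-0.34) and Cd5 (-0.52) among them. The part of T cell genes and Gzmb in the values of Ccl5 was not tested. On none of the 4 arrays did Ccl5, Cd3e, Cd8a or Cd3g read above 95% of the negative control rows. Gzmb read above that level on both shNrf3 arrays and on neither shCtrl array.

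Ccl7 had construct differences of 0.18 in HFD and -0.06 in NC, which are of opposite sign and differ by 0.24. This was not tested either, and after centring on transcript rows the NC difference was 0.03.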

How the results depend on the processing

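No paired analysis was possible because each group has 1 array. The counts of the 9 genes at 2-fold or more between constructs within each diet stayed within 1.5 times of the reported ones under all alternatives run, with 4 in place of 6 in NC after quantile scaling or centring on genes past the filter. The count higher in both diets was 4 as reported, 3 after loess and 2 after quantile scaling or that centring. Those between diets moved as follows. With shNrf3 the genes higher in HFD were 1 after centring on genes past the filter, an alternative chosen after seeing the data, and 2 at 1.5-fold. With shCtrl those higher were 1 after that centring or with the 75th percentile filter, which leaves out Ccl4 and Ccl5, and those lower were 5 at 1.5-fold. For the construct by diet difference the count lower was 1 after cyclic loess, quantile scaling or that centring, Ccl8 and Ccl12 then being under 2-fold; the cause was not tested. Counts over all genes moved more: with shCtrl 1468 were higher and 391 lower in HFD as reported, 850 and 633 after loess, 873 and 684 after quantile scaling, 725 and 849 after that centring. Between constructs in HFD the 256 higher and 714 lower became 1009 higher with no filter, 88 and 304 with the 75th percentile filter, 914 and 2082 at 1.5-fold, and 471 lower after quantile scaling. In NC the 1334 and 453 became 785 and 155 with the 75th percentile filter, 2690 and 1352 at 1.5-fold, and 1303 lower with no filter. With shNrf3 the 187 and 504 between diets became 738 and 805 with no filter, 39 and 221 with the 75th percentile filter, and 886 and 1442 at 1.5-fold. With shCtrl they became 789 and 97 with that filter, 3127 and 1076 at 1.5-fold, and 1537 lower with no filter. The limma fit called 1 gene for construct after loess and 27 after that centring, and 11 for diet after it, none of them among the 9. Over all limma fits run the adjusted p of Ccl12 for construct ran from 0.0593 to 0.936, and of Ccl8 for diet from 0.0526 to 1. Both low ends came from centring on genes past the filter, the alternative chosen after seeing the data. In the other limma fits the lowest adjusted p was 0.285 for Ccl12 and 0.352 for Ccl8, both after loess. Levels near the control rows limit Ccl4 and Ccl5.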
